A study of Mus musculus with 6 samples.

Results

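The genes described here are the mouse protein-coding genes of the semaphorin, plexin, slit, robo, ephrin, Eph, netrin and Unc5 families, known together as guidance genes. They were picked by gene name from a count table of 54532 genes, which gave 67 genes: 20 semaphorins, 9 plexins, 3 slits, 4 robos, 8 ephrins, 14 Eph receptors, 5 netrins and netrin-Gs and 4 Unc5 receptors. Their transcripts were counted in 3 female and 3 male poly-A RNA-seq libraries of cultured cells labelled as aortic endothelial cells of wild-type mice, a series made to ask how such cells differ between the sexes. All cultures grew untreated in F-12 medium with serum, antibiotics, heparin and endothelial growth factors, and the labels give neither the age nor the strain of the mice. Separate animals or cultures within a sex are not stated either, so the p-values reflect the spread among these libraries alone, which may be technical.

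Guidance proteins were first found as cues that attract or repel growing axons, and blood vessels use the same families. Semaphorins signal through plexins, with neuropilins as co-receptors for most secreted (class 3) semaphorins. Slits bind robo receptors, netrins bind Dcc, neogenin and Unc5 receptors, and ephrins are membrane-bound ligands of Eph receptor tyrosine kinases, so that both the ligand and the receptor cell can respond to contact. In vessels, ephrin-B2 marks arterial and EphB4 venous endothelium, Sema3E acts on plexin D1 during vessel patterning, and Unc5B and Robo4 are receptors of endothelial cells.

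Library totals ran from 17410996 to 22993574 counts. Levels are given as CPM, which are counts put on the scale of 1 library total after TMM correction, and levels of different genes are compared only as CPM per kilobase of gene length. Xist was at 945 to 1376 CPM in female and 0.114 to 0.533 CPM in male libraries, and Uty, Kdm5d, Eif2s3y and Ddx3y of the Y chromosome were at 0 in every female library and at 24.9 CPM or more in every male library, as the labelled sexes would give. Among male libraries replicate 3 stood apart, with correlations of log2 CPM of 0.966 and 0.973 against 0.988 between male replicates 1 and 2. The endothelial label was not borne out by its markers: 11 of 12 endothelial markers were under 1 CPM in every library, with Cdh5, Cldn5 and Tie1 at 0 counts, and their summed level was 2.57 to 4.39 CPM in female and 4.21 to 6.61 CPM in male libraries. The 8 fibroblast markers summed to 11814 to 12681 CPM in female and 6519.6 to 7124 CPM in male libraries, with 5 of them higher and 1 lower in female. Pericyte markers summed to 1670.4 to 1716 CPM in female and 1619 to 1999.7 CPM in male libraries, and neural and glial markers to 13.5 to 16.5 CPM in female and 24.1 to 38.8 CPM in male libraries. Smooth muscle markers summed to 117 to 120.4 CPM in female and 142 to 177 CPM in male libraries, and lymphatic markers, nearly all Pdpn, which fibroblasts also express, to 840.2 to 894 CPM in female and 315 to 379.6 CPM in male libraries. Macrophage markers summed to 12.7 to 18.1 CPM in female and 6.30 to 10.3 CPM in male libraries, with Ptprc at 0 counts, and mesothelial markers to at most 2.09 CPM in any female and 3.19 CPM in any male library. Within these sums members went apart: of the pericyte markers Rgs5 was higher (1314 ± 38.0 CPM in the female and 971 ± 121 CPM in the male libraries, edgeR adjusted p = 0.0314) and Pdgfrb lower (352 ± 21.7 CPM in the female and 832 ± 103 CPM in the male libraries, edgeR adjusted p = 9.19e-05). Most of the smooth muscle sum was Smtn, and Acta2 was lower (3.23 ± 0.750 CPM in the female and 20.4 ± 6.01 CPM in the male libraries, edgeR adjusted p = 7.60e-05). What part the cell makeup of the cultures had in the differences below was not tested.

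Guidance genes differed between the sexes in both directions. The slits, Robo1, the netrins and Unc5b were lower in female libraries, 4 plexins were higher, and semaphorins and Eph receptors went both ways. Of the 67 genes, 51 passed the filter on low counts and were tested. By edgeR's quasi-likelihood test with Benjamini-Hochberg adjustment over all tested genes, 12 were higher and 15 lower in female (called at an adjusted p under 0.05), and 24 did not pass. Of the 27 calls, 4 (Plxnc1, Epha4, Ephb6 and Ntng1) were of genes that passed the filter only through the sex in which they were high, so their calls are given as a description. Without the 7 genes that passed through 1 sex, 11 of 44 were higher and 12 lower. Among all 14932 tested genes, with those that passed through 1 sex kept in, 18.3% were called, 9.68% higher and 8.62% lower. A fold change of at least 2 was called higher for 9 guidance genes and lower for 13, against 5.4% and 4.9% of all tested genes (10.3% in either direction). Of the 51 tested guidance genes 36 had no overlap between the sexes, against 35.9% of all tested genes. All 27 called guidance genes were among the 36, and genes both called and without overlap made up 18.2% of all tested genes. The median log2 fold change (female over male) was 0.07 over the tested guidance genes and -0.01 over all tested genes. Without male replicate 3, 16 guidance genes were called higher and 18 lower, where 16.2% and 16.4% of all tested genes were called. Male replicate 3 was the lowest male library for 32 of the 51 tested guidance genes (62.7%) and for 41.3% of all tested genes. The 27 calls were all made again with RLE scaling, upper quartile scaling, DESeq2, limma-voom (with sample quality weights), the filter left out and a replicate block, where 18.3%, 18.3%, 21.9%, 44.0%, 13.3% and 20.5% of all tested genes were called, and all 24 that could be tested at a mean of at least 50 counts were called there (19.5% of all). At an adjusted p under 0.01, 11 were higher and 13 lower, against 6.03% and 5.59% of all tested genes. Of the 27, between 24 and 27 were called again when any 1 library was left out, where the share of all tested genes called was 12.8%, 12.1% and 12.5% without female replicates 1, 2 and 3, and 16.7%, 12.6% and 32.7% without male replicates 1, 2 and 3. In bulk RNA, fewer cells of a type and less RNA per cell cannot be told apart.

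**Figure D1:**
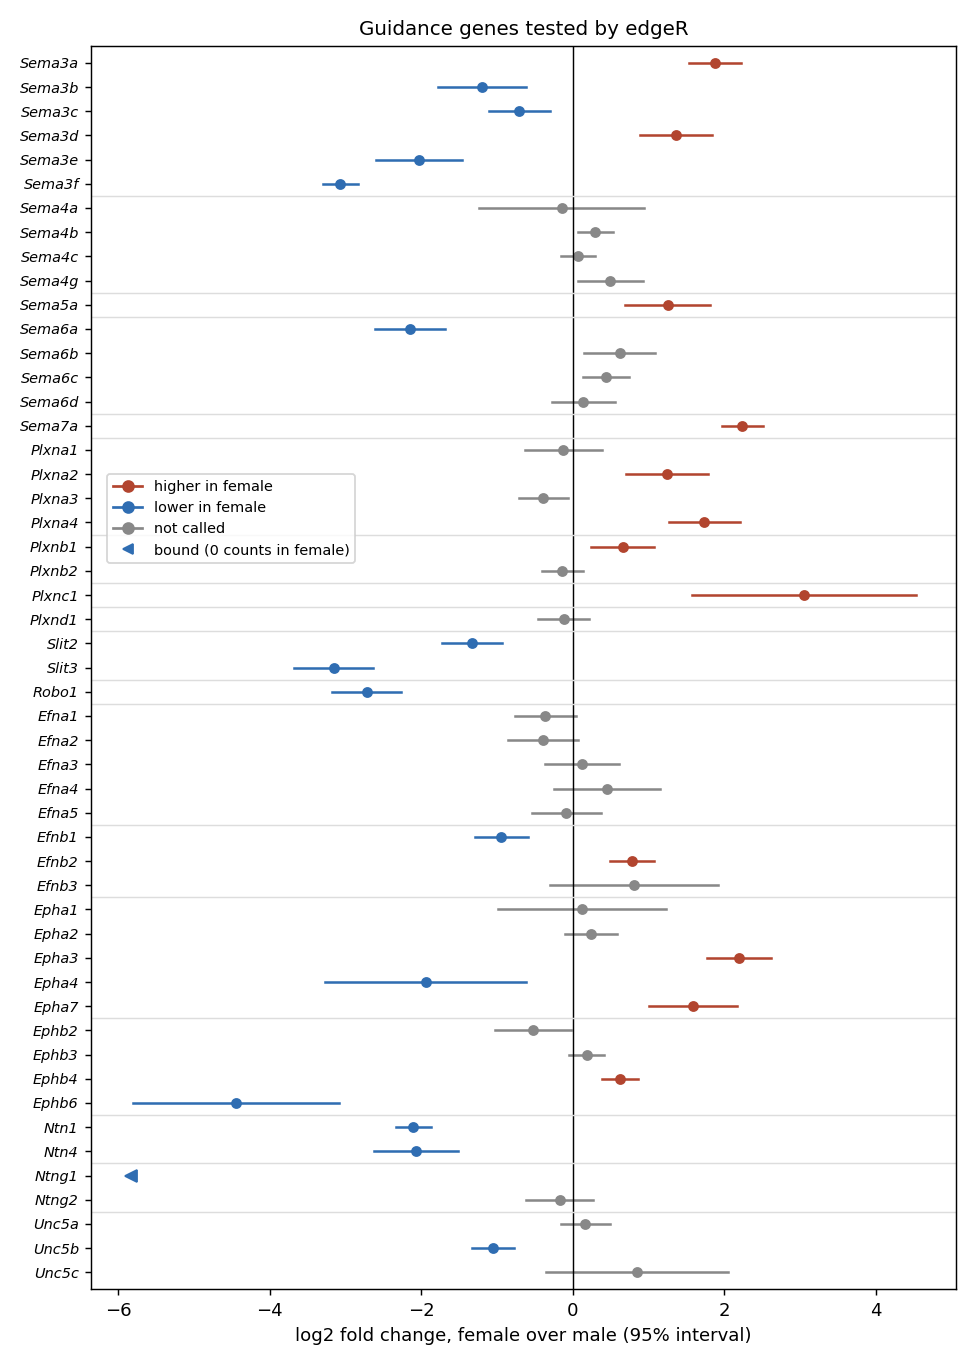
Log2 fold change (female over male) of the 51 tested guidance genes, by family, with 95% intervals from the edgeR fit; the arrowhead for Ntng1 is a bound, since it had 0 counts in female. Slit2, Slit3, Robo1, Ntn1, Ntn4 and Unc5b lie left of 0, Plxna2, Plxna4, Plxnb1 and Plxnc1 lie right of it, and the 5 A ephrins have intervals that include 0.

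Class 3 semaphorins are secreted, and all 6 tested members were called: Sema3a and Sema3d were higher and Sema3b, Sema3c, Sema3e and Sema3f lower in female. Of all tested genes, 9.68% were called higher and 8.62% lower. Sema3f, a repellent that acts through neuropilin 2 and was described as an inhibitor of angiogenesis, was at 54.3, 52.1 and 50.7 CPM in female libraries and 434, 449 and 433 CPM in male libraries. Every female library lay far under every male one, and the spread within a sex was small. The fitted log2 fold change was -3.07 ± 0.10 (edgeR adjusted p = 2.25e-07), a level 8.38-fold lower in female. Sema3a, a repellent that binds neuropilin 1 with A plexins, stood at 170.1, 154 and 173 CPM in female against 55.2, 43.0 and 36.8 CPM in male libraries, and the lowest female library was well above the highest male one (log2 change of 1.88 ± 0.15, edgeR adjusted p = 2.43e-05). Sema3d had 289, 233 and 229 CPM in the female and 122, 104 and 65.5 CPM in the male libraries. The groups did not overlap, and male replicate 3 was the lowest (log2 change of 1.36 ± 0.21, edgeR adjusted p = 0.00146; 1.14 without that library).

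Per kilobase of gene length, the other class 3 members were less abundant than Sema3a, Sema3d and Sema3f in female libraries. In male libraries Sema3c (3.68 CPM per kilobase) was slightly above Sema3a (3.24). Sema3e, the ligand of plexin D1, was at 1.87, 1.29 and 2.31 CPM in the female and 8.28, 7.64 and 6.66 CPM in the male libraries, with no overlap (log2 change of -2.03 ± 0.25, edgeR adjusted p = 0.000373). Sema3b averaged 2.69 ± 0.804 CPM in the female and 6.17 ± 0.438 CPM in the male libraries (SD, n = 3 each; -1.20 ± 0.26, edgeR adjusted p = 0.00935). Sema3c, needed for the outflow tract of the mouse heart, averaged 16.1 ± 1.93 CPM in the female and 26.2 ± 5.34 CPM in the male libraries. Its call (log2 change of -0.71 ± 0.18, edgeR adjusted p = 0.0212) was lost when any library other than male replicate 3 was left out: the edgeR adjusted p was 0.05004, 0.0667 and 0.104 without female replicates 1, 2 and 3, and 0.0587 and 0.0813 without male replicates 1 and 2. Sema3g, which arterial endothelium expresses, had 0 counts in female and 2 counts in male libraries and was not tested. Sema3d, Sema3a, Sema3e and Sema3c lie in that order along chromosome 5 within 5.35 megabases (chr5:12383385-12588948, chr5:13125414-13602565, chr5:14025276-14256689 and chr5:17574281-17730268, in GRCm38, all on the plus strand). The first pair was higher and the second pair lower in female. With other genes such as Hgf and Cacna2d1 included, the span holds 21 protein-coding genes.

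**Figure D2:**
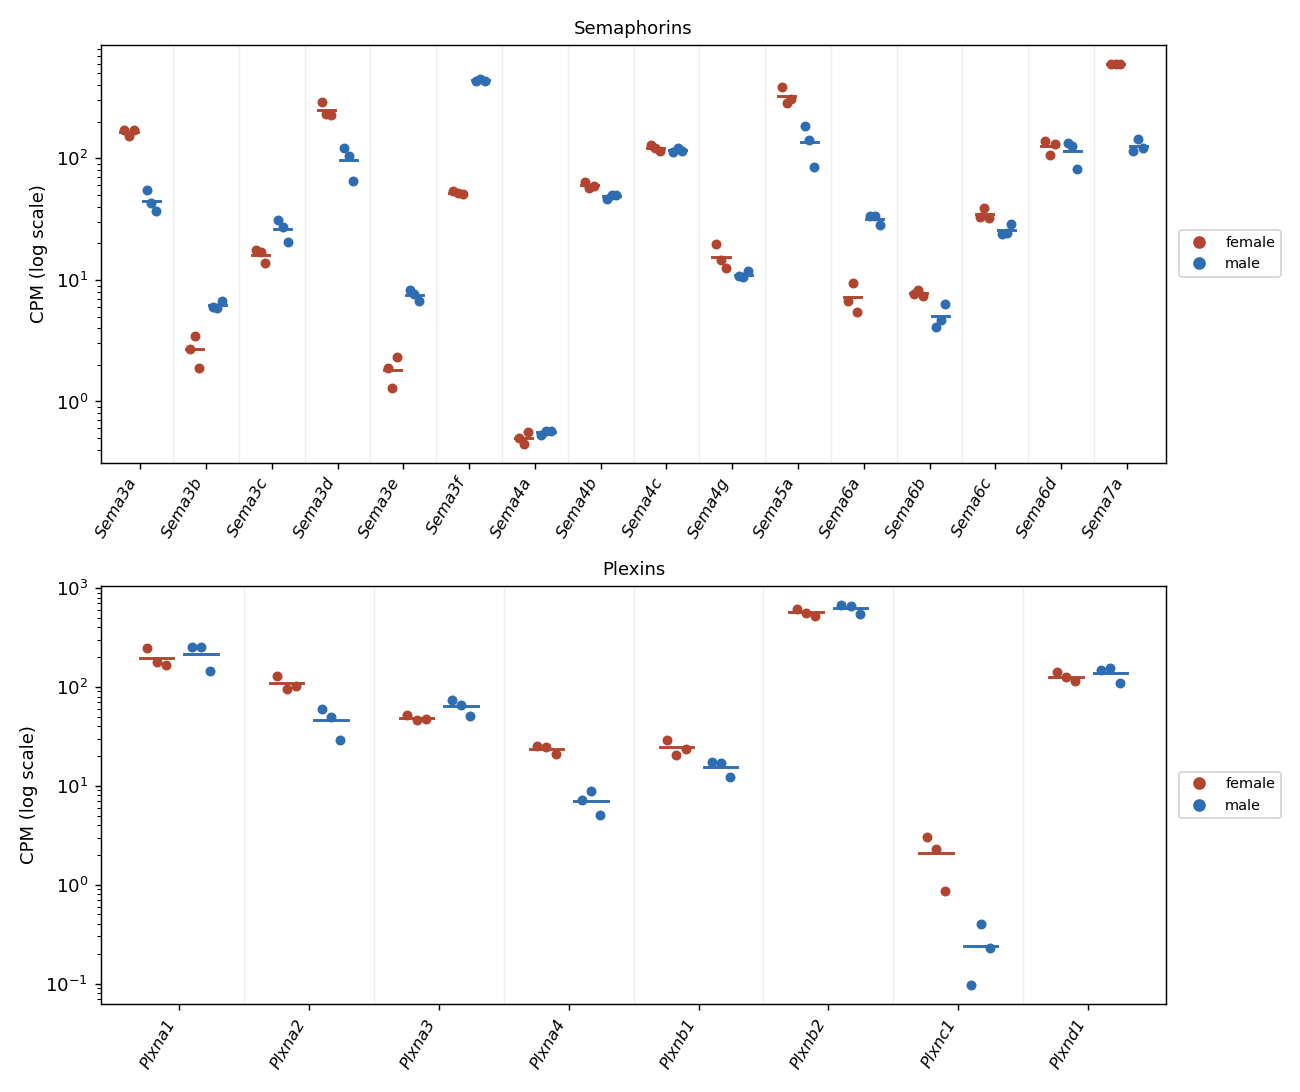
CPM (log scale) of each tested semaphorin and plexin in the 3 female and 3 male libraries, with the mean of each sex as a bar. Sema3f lies near 50 CPM in female and 433 CPM or more in male libraries, Sema7a near 599 CPM in female and under 150 CPM in male libraries, and the sexes overlap for Plxna1, Plxnb2 and Plxnd1.

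Of the membrane-bound semaphorins, Sema7a and Sema5a were higher and Sema6a lower in female. Sema7a, which is anchored by a lipid and signals through plexin C1 and integrins that hold the beta 1 chain, was at 602, 597 and 598 CPM in the female and 114, 145 and 122 CPM in the male libraries. The 3 female libraries were nearly equal and 4.71-fold above male in the fit (log2 change of 2.24 ± 0.12, edgeR adjusted p = 2.03e-06). Per length it was the most abundant guidance transcript of the female libraries, at 182 ± 0.852 CPM per kilobase against 38.5 ± 4.90 in male libraries (SD, n = 3 each), where Sema3f (84.4 ± 1.64) and Plxnb2 (81.2 ± 8.70) led. Sema5a, whose extracellular part carries thrombospondin repeats, had 385, 284 and 307 CPM in the female and 185, 141 and 84.4 CPM in the male libraries. The male libraries were spread widely, with replicate 3 lowest, yet all lay under the female ones (log2 change of 1.25 ± 0.25, edgeR adjusted p = 0.00646; 1.00 without male replicate 3). Sema6a, a ligand of plexins A2 and A4, was at 6.67, 9.40 and 5.47 CPM in the female and 33.4, 33.5 and 28.1 CPM in the male libraries, lower in each female library (log2 change of -2.15 ± 0.20, edgeR adjusted p = 6.31e-05).

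Of the 4 tested class 4 semaphorins edgeR called none (at an unadjusted p under 0.05, Sema4b and Sema4g, both higher), DESeq2 none and limma-voom with quality weights Sema4b and Sema4g. Of all tested genes, edgeR called 18.3%, DESeq2 21.9% and limma-voom 44.0%. Sema4c, a ligand of plexin B2 and the most abundant class 4 member, averaged 122 ± 6.53 CPM in the female and 116 ± 4.25 CPM in the male libraries, with a 95% interval of the log2 fold change of -0.16 to 0.29. Sema4b averaged 59.96 ± 3.33 CPM in the female and 48.8 ± 1.93 CPM in the male libraries and was not called (log2 change of 0.30 ± 0.10, edgeR adjusted p = 0.0822). Sema4g averaged 15.6 ± 3.80 CPM in the female and 11.1 ± 0.784 CPM in the male libraries, and Sema4a stayed under 1 CPM, at 0.503 ± 0.0528 CPM in the female and 0.559 ± 0.0227 CPM in the male libraries. The most abundant class 6 member, Sema6d, which can bind plexin A1, averaged 126 ± 16.9 CPM in the female and 114 ± 28.2 CPM in the male libraries, with an interval of -0.28 to 0.56 on the log2 scale. Sema6c averaged 34.8 ± 3.77 CPM in the female and 25.7 ± 2.65 CPM in the male libraries and Sema6b 7.77 ± 0.433 CPM in the female and 5.06 ± 1.18 CPM in the male libraries (edgeR adjusted p = 0.0518 and 0.0706), and DESeq2 called Sema6c (adjusted p = 0.0295). Limma-voom with quality weights called both Sema6c and Sema6b higher in female (limma-voom adjusted p = 0.000395 and 0.000922). Without male replicate 3, Sema4b, Sema4g, Sema6b and Sema6c passed the test as higher in female (edgeR adjusted p = 0.0251, 0.0265, 0.00604 and 0.00286), at log2 fold changes of 0.31 to 0.81.

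Of the plexins, the semaphorin receptors, 4 of 8 tested were called higher and none lower by edgeR, where 9.68% and 8.62% of all tested genes were called. Of these 4, Plxnc1 passed the filter only through the female libraries, so its call is given as a description. At an unadjusted p under 0.05 Plxna3 was the only lower one, DESeq2 called the same 4, and limma-voom with quality weights called these 4 higher and Plxna1, Plxna3, Plxnb2 and Plxnd1 lower (adjusted p = 0.000375 for Plxna3). Of all tested genes, DESeq2 called 21.9% and limma-voom 44.0%, in either direction. Plxna2 was at 130.2, 95.8 and 101 CPM in the female and 60.1, 49.3 and 28.9 CPM in the male libraries, and Plxna4 at 25.4, 24.8 and 20.9 CPM in the female and 7.22, 8.93 and 5.07 CPM in the male libraries. For both, every female library was above every male one, and male replicate 3 was lowest. Their log2 fold changes were 1.24 ± 0.24 and 1.74 ± 0.21 (edgeR adjusted p = 0.00534 and 0.000281). Plxnb1, a receptor of Sema4D, averaged 24.5 ± 4.33 CPM in the female and 15.5 ± 2.81 CPM in the male libraries (log2 change of 0.66 ± 0.19, edgeR adjusted p = 0.0351), a call lost without female replicate 1, female replicate 3 or male replicate 2 (edgeR adjusted p = 0.164, 0.107 and 0.0830). Plxnc1, the plexin that binds Sema7A, was scarce, at 3.06, 2.31 and 0.855 CPM in the female and 0.0969, 0.398 and 0.228 CPM in the male libraries. Its log2 fold change of 3.05 ± 0.66 (edgeR adjusted p = 0.00958) was 2.65 without female replicate 1, where it was not called (edgeR adjusted p = 0.0537), and 3.65 without male replicate 2.

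The most abundant plexins per length were not called by edgeR or DESeq2, while limma-voom with quality weights called them lower in female. That method called 44.0% of all tested genes in either direction. Plxnb2, which serves class 4 semaphorins, averaged 570.0 ± 45.3 CPM in the female and 627 ± 67.1 CPM in the male libraries, Plxna1 198 ± 43.8 CPM in the female and 216 ± 62.9 CPM in the male libraries, and Plxnd1 127 ± 13.5 CPM in the female and 138 ± 25.3 CPM in the male libraries. The 95% intervals of their log2 fold changes were -0.41 to 0.13, -0.64 to 0.39 and -0.46 to 0.22, so a 2-fold difference lies outside each of them. By limma-voom their log2 fold changes were -0.21, -0.38 and -0.28 (adjusted p = 0.0245, 0.0189 and 0.0154). The X-linked Plxna3 averaged 48.7 ± 2.91 CPM in the female and 63.6 ± 11.1 CPM in the male libraries (edgeR adjusted p = 0.0958). Without male replicate 3, Plxnd1 and Plxna3 passed as lower in female (log2 fold changes -0.27 and -0.52, edgeR adjusted p = 0.0415 and 0.000347). Plxnb3 had 1 count in all and was not tested.

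Slit2, Slit3 and the receptor gene Robo1 were all lower in female. Slit proteins are large secreted ligands, and Robo1 is their widely expressed receptor. Slit3 was at 33.1, 33.1 and 25.6 CPM in the female and 332, 306 and 181 CPM in the male libraries. Male replicate 3 was the lowest male library and still lay far above the female ones (log2 change of -3.16 ± 0.23, edgeR adjusted p = 1.27e-05; -3.38 without male replicate 3). Slit2 was at 204, 194 and 193 CPM in the female and 589.6, 540.0 and 356 CPM in the male libraries, again with no overlap and a wider male spread (log2 change of -1.33 ± 0.18, edgeR adjusted p = 0.000532). Robo1 was at 10.01, 7.77 and 9.06 CPM in the female and 72.2, 61.5 and 43.4 CPM in the male libraries. It was 6.58-fold lower in female (log2 change of -2.72 ± 0.20, edgeR adjusted p = 1.37e-05), and all 3 female libraries lay under all 3 male ones.

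The remaining members of both families were at or near the detection limit. Robo4, the robo of endothelial cells, had 0 counts in all 6 libraries, and Robo2, Robo3 and Slit1 were under 1 CPM in every library and not tested. A count of 0 in 1 library allows a level of up to 0.128 to 0.171 CPM (3 counts; counting error only).

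The promoters of Slit2 and Slit3, lower in female, and of Sema7a, higher in female, are printed to show the sequence around the RefSeq starts of these genes. They run from 250 bases before to 50 bases after the RefSeq start, 5′ to 3′ on the gene's strand, in GRCm38.p6. Capitals mark the GC box GGGCGG and the TATA motif TATAAA on either strand, with overlapping matches each counted.
Slit2 promoter, chr5:47982905-47983204 (plus strand): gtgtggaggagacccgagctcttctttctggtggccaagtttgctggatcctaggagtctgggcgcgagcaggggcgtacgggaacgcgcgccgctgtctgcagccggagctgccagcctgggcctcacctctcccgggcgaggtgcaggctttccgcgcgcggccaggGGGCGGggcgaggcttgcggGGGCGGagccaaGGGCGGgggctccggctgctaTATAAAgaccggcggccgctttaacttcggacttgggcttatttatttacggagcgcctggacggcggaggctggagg
Slit3 promoter, chr11:35121206-35121505 (plus strand): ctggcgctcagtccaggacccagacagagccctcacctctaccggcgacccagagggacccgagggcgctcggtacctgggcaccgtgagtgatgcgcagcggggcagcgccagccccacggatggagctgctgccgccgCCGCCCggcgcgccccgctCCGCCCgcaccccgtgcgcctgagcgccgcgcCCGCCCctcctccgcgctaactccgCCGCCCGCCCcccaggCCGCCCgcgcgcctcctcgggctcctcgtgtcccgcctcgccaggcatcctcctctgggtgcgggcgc
Sema7a promoter, chr9:57939862-57940161 (plus strand): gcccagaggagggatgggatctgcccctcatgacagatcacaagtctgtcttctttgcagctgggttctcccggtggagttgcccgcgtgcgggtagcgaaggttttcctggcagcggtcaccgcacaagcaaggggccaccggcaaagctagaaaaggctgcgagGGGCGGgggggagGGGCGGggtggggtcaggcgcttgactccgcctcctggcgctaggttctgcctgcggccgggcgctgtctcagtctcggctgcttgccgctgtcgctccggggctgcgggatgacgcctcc
The Slit2 window holds 3 GC boxes and 1 TATA motif, the Slit3 window 6 GC boxes and the Sema7a window 2 GC boxes. Of 32851 RefSeq promoter windows of this length, 35.7% hold a GC box and 13.6% a TATA motif. RefSeq windows were matched for 58 of the 67 guidance genes, and of these 74 windows 51 hold a GC box and 2 a TATA motif. These are matches of letters, not measured binding sites.

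Slit2 and Slit3 each carry a copy of the microRNA miR-218 in an intron, Mir218-1 at chr5:48223942-48224051 and Mir218-2 at chr11:35616816-35616925, both on the plus strand of their host. The mature product is the same from both copies and is known from vertebrates as a repressor of Robo genes, so it is printed with its seed (bases 2 to 8) in capitals, and the matching letters in Robo1 and Slit2 transcripts are in capitals below it.
miR-218-5p: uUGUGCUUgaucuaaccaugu
Robo1, chr16:73045348-73045354 (plus strand): ttggttttaaAAGCACAatcactaaac
Slit2, chr5:48304543-48304549 (plus strand): atactagcagAAGCACAtctacaagag
Slit2, chr5:48306846-48306852 (plus strand): attattagcaAAGCACAtaaattaaag
All 3 sites lie in the 3′ UTR by GENCODE M21 (GRCm38), and the coordinates are those of the capitals. The 7 letters AAGCACA occur in a 3′ UTR of 16 of the 51 tested guidance genes (31.4%) and of 16.8% of 12586 tested protein-coding genes, whose longest 3′ UTRs have a median of 1538 bases in the guidance genes and 1207 bases in all. The hairpins had 0 counts in female and 2 counts in male libraries, and poly-A libraries do not measure mature microRNA.

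**Figure D3:**
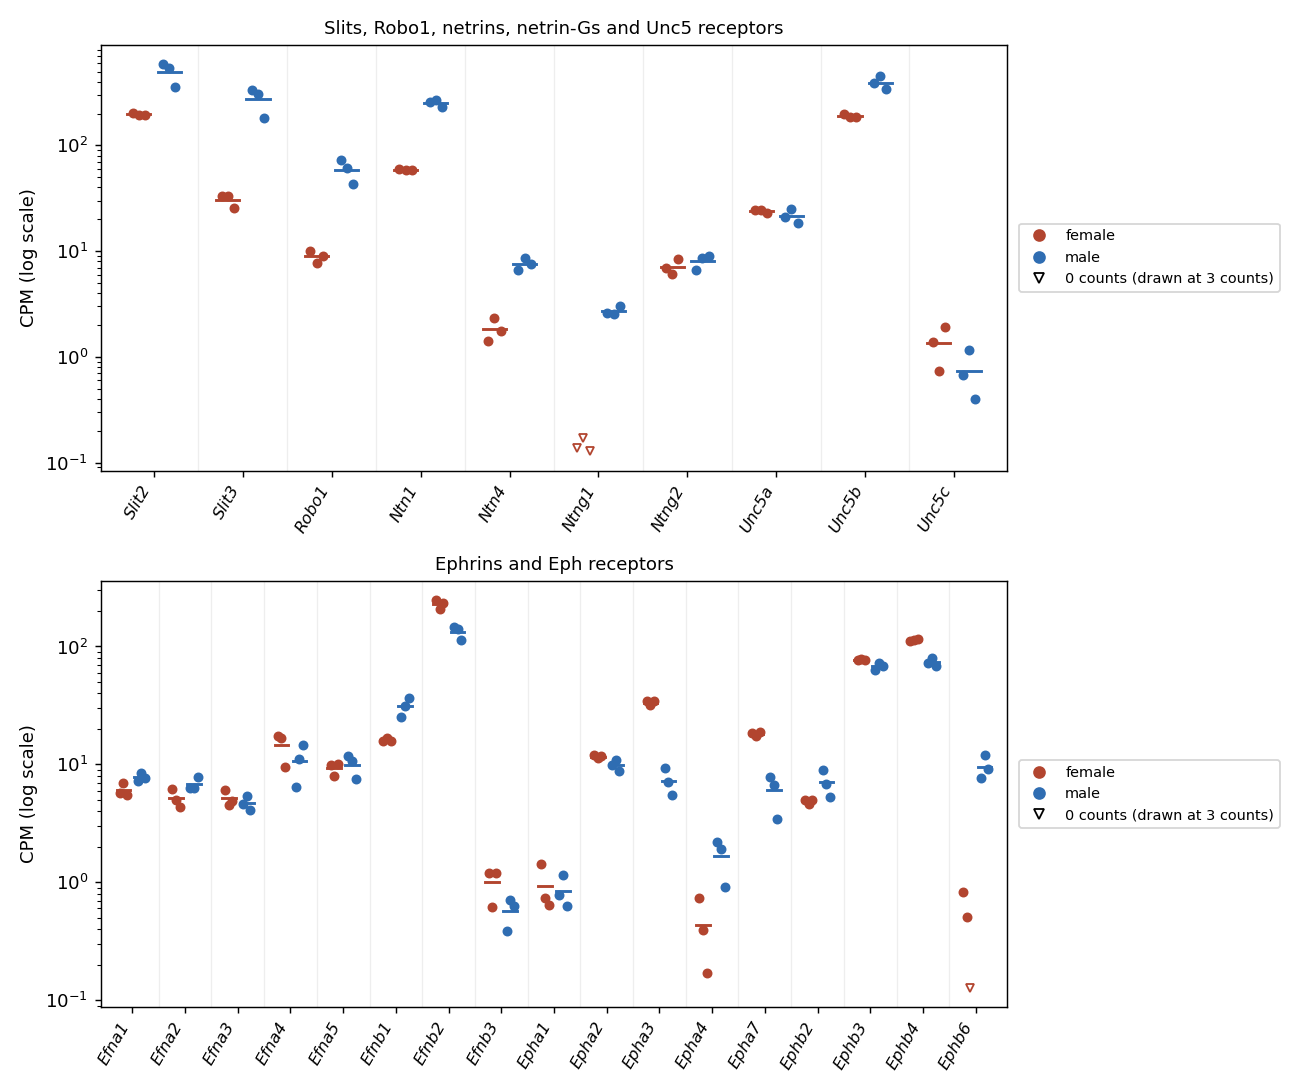
CPM (log scale) of the tested slits, Robo1, netrins, netrin-Gs, Unc5 receptors, ephrins and Eph receptors in each library, with the mean of each sex as a bar where no library is at 0; open triangles are libraries with 0 counts, drawn at 3 counts. Slit3, Robo1, Ntn1 and Ephb6 lie lower in female than in male libraries, Epha3 and Epha7 lie higher, and the A ephrins lie close together.

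Netrins were lower in female, as was their receptor gene Unc5b. Netrin 1, the best known secreted netrin, was measured at 59.4, 58.4 and 58.8 CPM of Ntn1 in female and 257, 268 and 233 CPM in male libraries. The female libraries were nearly equal, and the fit put them 4.30-fold lower (log2 change of -2.10 ± 0.10, edgeR adjusted p = 1.24e-06). Ntn4, a netrin of basement membranes, was at 1.42, 2.31 and 1.75 CPM in the female and 6.68, 8.62 and 7.52 CPM in the male libraries, with no overlap (log2 change of -2.07 ± 0.25, edgeR adjusted p = 0.000274). Of the membrane-anchored netrin-Gs, Ntng1 had 0 counts in all 3 female libraries and 2.62, 2.56 and 3.02 CPM in male libraries, which puts female at least 57.1-fold lower if the 3 female libraries together held 3 counts (edgeR adjusted p = 0.000199). Ntng1 passed the filter only through the male libraries, so its call is given as a description. Ntng2 averaged 7.15 ± 1.16 CPM in the female and 8.10 ± 1.25 CPM in the male libraries and was not called (edgeR adjusted p = 0.616); part of its exons also belongs to a gene on the same strand, 6530402F18Rik.

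Unc5b, a netrin receptor that endothelial cells are known to express, was at 198, 184 and 186 CPM in the female and 390.5, 451 and 338 CPM in the male libraries, lower in every female library (log2 change of -1.05 ± 0.13, edgeR adjusted p = 0.000272). Unc5a averaged 24.1 ± 0.976 CPM in the female and 21.4 ± 3.22 CPM in the male libraries, which overlapped (95% interval of the log2 fold change -0.16 to 0.49). Unc5c was near 1 CPM and not called (interval -0.35 to 2.04), and Unc5d and Ntn5 were not tested, with 2 counts and 0 counts in all. The other netrin receptors are no members of these families: Dcc had 0 counts in all 6 libraries, and neogenin (Neo1) averaged 162 ± 10.04 CPM in the female and 219.6 ± 50.1 CPM in the male libraries and was not called (log2 change of -0.44 ± 0.16, edgeR adjusted p = 0.0981).

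Ephrin-B2 and its receptor EphB4, the artery and vein pair of endothelium, were both higher in female. Efnb2 was at 246, 209 and 235 CPM in the female and 147, 142 and 113 CPM in the male libraries, and Ephb4 at 110.3, 113 and 116 CPM in the female and 72.0, 80.02 and 68.3 CPM in the male libraries. Neither gene had overlapping groups, and both changes were under 2-fold (log2 fold changes 0.78 ± 0.13 and 0.62 ± 0.10, edgeR adjusted p = 0.00220 and 0.00231). Both were measured in libraries in which Cdh5, Cldn5 and Tie1 had 0 counts. Efnb1, the X-linked ephrin of mesenchyme and craniofacial tissue, was lower in female, at 15.7, 16.8 and 15.8 CPM in the female and 25.3, 31.2 and 36.5 CPM in the male libraries (log2 change of -0.94 ± 0.16, edgeR adjusted p = 0.00212). Efnb3 averaged 1.00 ± 0.331 CPM in the female and 0.574 ± 0.166 CPM in the male libraries and was not called.

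None of the 5 A ephrins, which are held to the membrane by a lipid anchor, was called by edgeR at an adjusted p under 0.05, and none had an unadjusted p under 0.05. DESeq2 called none of them, and limma-voom with quality weights called Efna1 (adjusted p = 0.0456). Of all tested genes, edgeR called 18.3%, DESeq2 21.9% and limma-voom 44.0%. The sexes did not overlap for Efna1 and Efna2, as for 35.9% of all tested genes. Efna1, a ligand of EphA2, averaged 6.06 ± 0.809 CPM in the female and 7.76 ± 0.577 CPM in the male libraries (95% interval of the log2 fold change -0.77 to 0.04). Efna4, the most abundant per length, averaged 14.5 ± 4.33 CPM in the female and 10.6 ± 4.05 CPM in the male libraries, and its libraries overlapped (-0.25 to 1.15 on the log2 scale). Efna2, Efna3 and Efna5 had 95% intervals of -0.86 to 0.07, -0.36 to 0.61 and -0.54 to 0.37.

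Among EphA receptors, Epha3 and Epha7 were higher in female. Epha3, first found in leukaemia cells and known from mesenchyme, was at 34.2, 31.8 and 34.3 CPM in the female and 9.25, 7.11 and 5.52 CPM in the male libraries (log2 change of 2.19 ± 0.19, edgeR adjusted p = 3.31e-05). Epha7 was at 18.3, 17.4 and 18.7 CPM in the female and 7.89, 6.67 and 3.47 CPM in the male libraries (log2 change of 1.58 ± 0.26, edgeR adjusted p = 0.00192; 1.32 without male replicate 3). For each gene the 3 female libraries were tight and above all male ones. Epha2, a receptor of endothelium and epithelium, averaged 11.6 ± 0.365 CPM in the female and 9.87 ± 1.10 CPM in the male libraries and was not called (95% interval -0.11 to 0.58).

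Epha4 was scarce, passed the filter only through the male libraries, and its call, given as a description, was unstable. It was at 0.731, 0.394 and 0.171 CPM in the female and 2.18, 1.90 and 0.911 CPM in the male libraries (log2 change of -1.94 ± 0.59, edgeR adjusted p = 0.0484). Without female replicate 2 or 3, or male replicate 1 or 2, it was not called (edgeR adjusted p = 0.156, 0.148, 0.145 and 0.161), and without female replicate 1 its log2 fold change was -2.59. Epha1, also near 1 CPM, was not called, and 236 of its exonic bases are shared with Zyx on the opposite strand, which averaged 270.0 CPM in the female and 247 CPM in the male libraries. Whether counting used strand is not given in the sources used here, so its reads may come from either gene.

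Ephb6, an Eph receptor whose kinase domain is inactive, had the largest fitted fold change of the called Eph receptors. Ephb6 passed the filter only through the male libraries, so its call and this rank are given as a description. It was at 0.823, 0.507 and 0 CPM in the female and 7.60, 12.0 and 9.17 CPM in the male libraries, so that all female libraries were under 1 CPM (log2 change of -4.45 ± 0.60, edgeR adjusted p = 0.000625). The size of the change depended on single female libraries: it was -5.39 without female replicate 1 and -3.82 without female replicate 3, called each time. Ephb3 averaged 77.3 ± 1.27 CPM in the female and 67.9 ± 4.61 CPM in the male libraries and was not called (95% interval -0.04 to 0.42). Ephb2 averaged 4.88 ± 0.232 CPM in the female and 7.03 ± 1.84 CPM in the male libraries and was called lower only without male replicate 3 among the single libraries left out (log2 fold change -0.69, edgeR adjusted p = 0.0181).

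The members held unequal shares of their families' RNA in the sexes. Summed over class 3 semaphorins, the level was 54.2 ± 4.71 CPM per kilobase in female and 105 ± 5.33 in male libraries (SD, n = 3 each). Of this sum Sema3f held 18.7 ± 1.008% in female and 80.7 ± 3.70% in male libraries, Sema3d 53.6 ± 2.50% in female and 10.7 ± 2.76% in male libraries, and Sema3a 22.1 ± 1.88% in female and 3.08 ± 0.521% in male libraries. Thus Sema3d led in each female and Sema3f in each male library. The slits summed to 12.8 ± 0.881 CPM per kilobase in female and 64.5 ± 18.1 in male libraries, with Slit3 at 39.3 ± 3.15% of the sum in female and 69.5 ± 1.30% in male libraries. By this length Slit2 was above Slit3 in each female library and below it in each male one. Netrins summed to 9.86 ± 0.0450 CPM per kilobase in female and 42.3 ± 2.97 in male libraries with Ntn1 at about the same share in both (95.1 ± 1.20% in female and 95.2 ± 0.548% in male libraries).

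The leading EphA receptor was not the same in the sexes. EphA receptors summed to 8.46 ± 0.371 CPM per kilobase in female and 3.99 ± 0.739 in male libraries. Epha3 led in female (45.4 ± 0.796% in female and 21.0 ± 2.59% in male libraries) and Epha2 in male (29.5 ± 0.371% in female and 53.6 ± 5.83% in male libraries). Of the B ephrins, Efnb1 held 12.2 ± 1.38% in female and 31.5 ± 6.85% in male libraries. Gene length here is that of the deposited table, which exceeds the longest GENCODE M21 protein-coding transcript of many genes, such as Slit2 (25433 against 9960 bases). With transcript length instead, Sema3f held 17.8% in female and 80.9% in male libraries and Slit3 22.8% in female and 50.9% in male libraries, and the leading member of class 3 semaphorins, B ephrins and EphA receptors in each library was the same as with table length. The slits were not: Slit3 was above Slit2 by transcript length in male replicates 1 and 2, but in male replicate 3 Slit2 stood at 35.7 and Slit3 at 34.6 CPM per kilobase. No test was run on these shares.

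**Figure D4:**
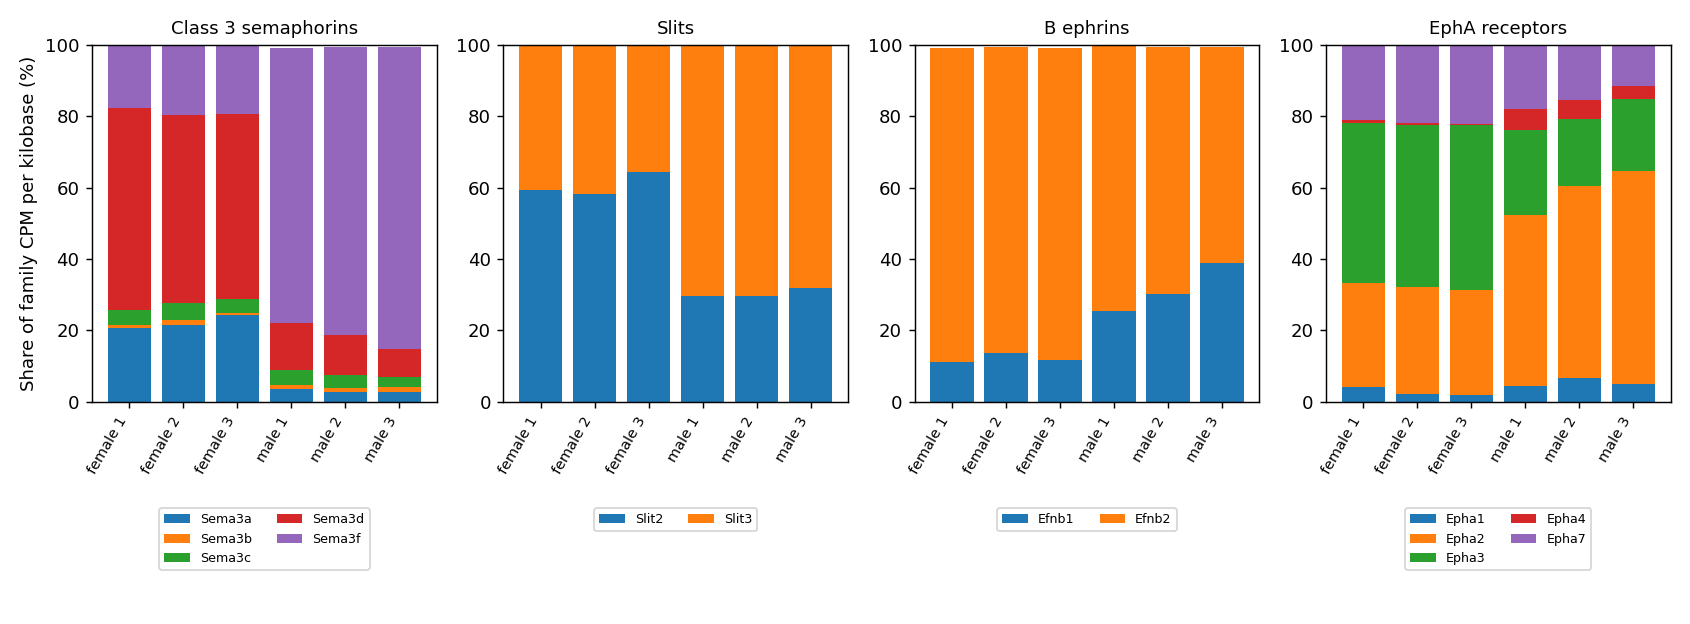
Share of each member in the summed CPM per kilobase of its family, in percent, for each of the 3 female and 3 male libraries; members under 1% in every library are left out. Sema3d is the largest class 3 block in female and Sema3f in male libraries, Slit2 exceeds Slit3 in female and not in male libraries (by the table's gene length), and Epha3 leads in female and Epha2 in male libraries.

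Genes that work with these families went both ways as well. Of 29 partner genes (co-receptors, further ligands and the proteases that shed ephrins and semaphorins), 20 were tested, 6 were higher and 6 lower in female, with a median log2 fold change of -0.17, where 9.68% and 8.62% of all tested genes were called. Of the 6 lower, L1cam and Flrt3 passed the filter only through the male libraries, so their calls are given as a description. Without male replicate 3, 6 of 21 were higher and 10 lower, where 16.2% and 16.4% of all tested genes were called. The neuropilins parted: Nrp2, the co-receptor for Sema3F, was at 118, 99.3 and 94.3 CPM in the female and 16.6, 15.5 and 9.85 CPM in the male libraries, while Nrp1, the co-receptor for Sema3A, averaged 84.3 ± 7.72 CPM in the female and 94.6 ± 22.6 CPM in the male libraries and was not called (edgeR adjusted p = 0.584). Nrp2 was higher in every female library (log2 change of 2.89 ± 0.20, edgeR adjusted p = 7.91e-06), the opposite direction to Sema3f. L1cam, an adhesion molecule that pairs with neuropilin 1 in Sema3A signalling, was at 0, 0 and 0.257 CPM in the female and 50.6, 49.3 and 39.9 CPM in the male libraries, and its relative Chl1 at 5.49, 5.35 and 5.60 CPM in the female and 48.8, 37.6 and 24.4 CPM in the male libraries. Both were lower in each female library (-8.85 ± 0.45 and -2.75 ± 0.24 as log2 changes, edgeR adjusted p = 1.50e-06 and 4.01e-05). L1cam had 6 counts in female replicate 3 and 0 in the other female libraries, so the fitted size of its change rests on that library.

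Further partners went either way. Flrt3, a ligand of Unc5 receptors, averaged 0.628 ± 0.194 CPM in the female and 15.6 ± 3.34 CPM in the male libraries (log2 change of -4.64 ± 0.29, edgeR adjusted p = 4.58e-06), while its relative Flrt2 was not called (log2 change of 0.15 ± 0.20, edgeR adjusted p = 0.686). The glypican gene Gpc1, which binds Slit, fell (-1.44 ± 0.11, edgeR adjusted p = 1.84e-05), as did the collagen receptor integrin gene Itga1 (-2.43 ± 0.20, edgeR adjusted p = 2.79e-05). The neogenin ligands Rgma and Rgmb rose (1.17 ± 0.12 and 0.59 ± 0.10, edgeR adjusted p = 8.81e-05 and 0.00205), and so did the netrin-G1 ligand gene Lrrc4c (1.15 ± 0.19, edgeR adjusted p = 0.00234). The receptor tyrosine kinase gene Mst1r rose (0.44 ± 0.13, edgeR adjusted p = 0.0466). Of the sheddase genes Adam17 rose (0.37 ± 0.10) and Adam10 fell (-0.55 ± 0.15), at edgeR adjusted p = 0.0300 and 0.0328. These last 3 calls were near the threshold. Adam10 was not called when any library but male replicate 3 was left out (edgeR adjusted p = 0.0745 to 0.140). Adam17 was not called without female replicate 1, 2 or 3 or male replicate 2 (edgeR adjusted p = 0.120 to 0.135) or with no filter (edgeR adjusted p = 0.0517). Mst1r was not called when any library but male replicate 3 was left out (edgeR adjusted p = 0.0851 to 0.198), nor with RLE scaling, no filter or the replicate block (edgeR adjusted p = 0.0513, 0.0673 and 0.0588).

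Of 67 intracellular effector genes, 62 were tested, of which 6 were higher, 12 lower and 44 not called (median log2 fold change -0.13). The 6 higher are 9.68% of those tested, the same share as among all tested genes (9.68%), and the 12 lower are 19.4%, against 8.62% of all. Crmp1, Anks1b and Grip1, which are among these calls, passed the filter only through the sex in which they were high. Their calls are given as a description. Without male replicate 3, 8 were higher (12.9%) and 21 lower (33.9%), against 16.2% and 16.4% of all tested genes. Ngef (ephexin 1), an exchange factor that binds EphA receptors, was at 11.5, 12.7 and 13.2 CPM in the female and 92.3, 107 and 129 CPM in the male libraries. It was 8.76-fold lower in female with no overlap (log2 change of -3.13 ± 0.15, edgeR adjusted p = 1.20e-06). Srgap1, a GTPase-activating protein that binds Robo, fell (-1.35 ± 0.23, edgeR adjusted p = 0.00285), as did the EphA adaptor gene Anks1b, the ephrin-B adaptor gene Grip1, Src and Mical1, an oxidase that acts on actin downstream of plexins (edgeR adjusted p = 0.000655, 0.00496, 0.00470 and 0.00482). Those that rose included Trim9, a ubiquitin ligase of netrin responses (1.88 ± 0.16, edgeR adjusted p = 2.88e-05), the actin regulator Enah (1.29 ± 0.11, edgeR adjusted p = 3.64e-05), the adaptor Nck2 (0.88 ± 0.13, edgeR adjusted p = 0.000900), the cofilin kinase gene Limk2 (0.35 ± 0.10, edgeR adjusted p = 0.0393, not called when any library but male replicate 3 was left out, at 0.0709 to 0.194) and Rnd3 (0.87 ± 0.10, edgeR adjusted p = 0.000191). Crmp1, a mediator of Sema3A signalling, was near the detection limit in male libraries, at 4.16, 3.88 and 4.02 CPM in the female and 0.0484, 0.221 and 0.512 CPM in the male libraries (edgeR adjusted p = 0.000541). Rac1 and Cdc42 were not called (log2 fold changes 0.00 ± 0.10 and 0.11 ± 0.10).

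**Figure D5:**
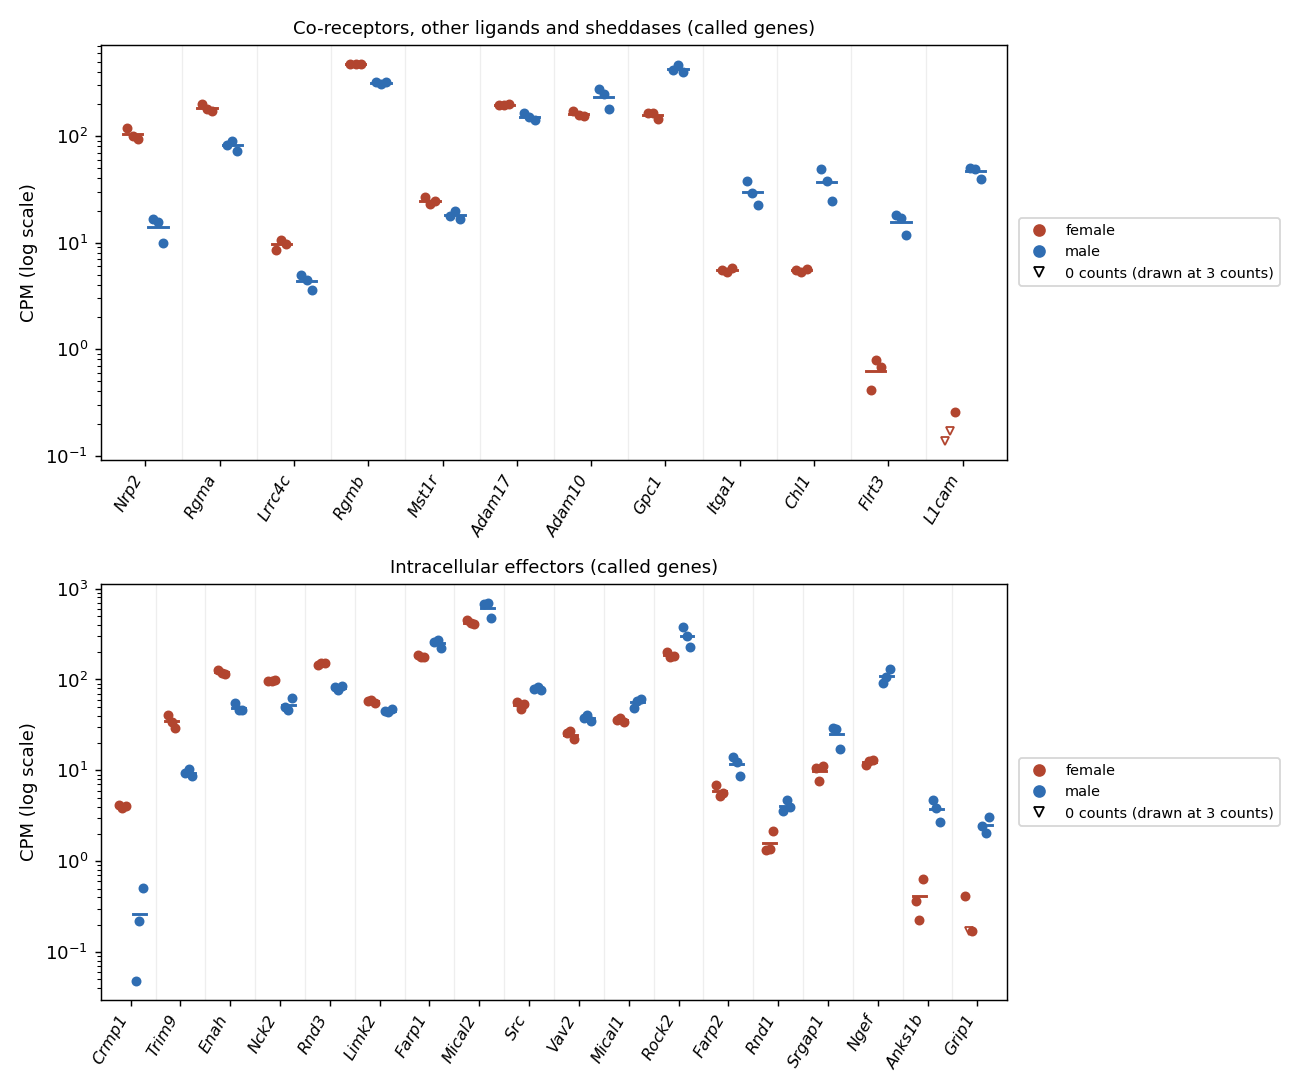
CPM (log scale) of the 12 called partner genes and the 18 called effector genes in each library, ordered by fold change, with the mean of each sex as a bar where no library is at 0; open triangles are libraries with 0 counts, drawn at 3 counts. Nrp2 and Crmp1 stand highest in female relative to male libraries, and L1cam, Flrt3 and Ngef stand well below their male levels in female libraries.

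The 16 guidance genes that were not tested stayed at or under 0.574 CPM in every library. Of these, 7 had 0 counts in all 6 libraries: Epha5, Epha8, Epha10, Ephb1, Ntn5, Robo4 and Sema5b. The other 9, with their counts over the female and the male libraries, were Sema4f (20 and 12), Slit1 (4 and 21), Sema4d (6 and 11), Robo2 (7 and 7), Robo3 (10 and 2), Sema3g (0 and 2), Unc5d (2 and 0), Epha6 (0 and 1) and Plxnb3 (1 and 0). A further 7 genes (Sema4a, Plxnc1, Efnb3, Epha4, Ephb6, Ntng1 and Unc5c) reached the filter's level in all libraries of 1 sex only.

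In the coordinates of the deposited table, which are those of GRCm38, Sema7a lies at chr9:57940112-57962865, Sema3f at chr9:107681500-107710475, Slit2 at chr5:47983138-48307733, Slit3 at chr11:35121224-35708507, Robo1 at chr16:72308306-73046095, Ntn1 at chr11:68209364-68400823 and Epha3 at chr16:63543534-63864175. Efnb1, Plxna3 and Plxnb3 are the X-linked members.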

How the data were processed

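RNA-seq was compared between 3 female and 3 male libraries, grouped by the sex in the labels. The table deposited by the authors holds counts of reads per gene, whole numbers and thus not normalized, with a gene length in bases. The submitters' processing notes name HISAT2 2.0.5 and featureCounts 1.5. Build and strand setting: not given in the sources used here, and the labels' protocols name both a directional and a non-directional library. All 67 guidance genes have the same coordinates in GENCODE M21 (GRCm38), which was used for transcripts, UTRs and overlaps. Genes that overlap on opposite strands may share reads.

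The test was that of edgeR 4.0.16 under R 4.3.3: TMM scaling, filterByExpr (minimum count 10), robust quasi-likelihood F test, Benjamini-Hochberg adjustment over all 14932 tested genes, called at an adjusted p under 0.05. Standard errors are the log2 fold change over the square root of F, with 95% intervals on the fit's degrees of freedom. Library totals set the precision: 3 counts are 0.128 to 0.171 CPM, and such floors cover counting error only. Within each sex all libraries differed by more than sampling noise (chi-square per degree of freedom 7.43 to 70.8).

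Other settings tried were upper quartile or RLE scaling, DESeq2 1.42.0, the voom method of limma 3.58.1 with quality weights, no filter, a mean of at least 50 counts, a replicate block, removal of single libraries and a threshold of 0.01 on the adjusted p. The members, the partner, effector and marker lists and the tests were chosen with earlier results of these data known. The rule for named genes took every called member, the 2 most abundant per length in each family, members with a textbook role in vessels, and up to 6 called genes per list and direction by smallest p. Other genes named (Neo1, Dcc, Nrp1, Flrt2, Rac1, Cdc42, the remaining uncalled members and overlapping genes) were chosen after their values were seen. Sequences are from RefSeq tables (GRCm38.p6) or, for target sites, the GRCm38 genome. Protein sequences were not used here.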

Additional observations from a re-analysis of the deposited data

How the results depend on the processing

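All 27 calls among guidance genes were made again, in the same direction, with RLE scaling, upper quartile scaling, DESeq2, limma-voom with quality weights, no filter, the replicate block and without male replicate 3, and so were all 24 with a value at a mean of at least 50 counts. At an adjusted p under 0.01, 11 guidance genes were higher and 13 lower. With single libraries removed there were 10 to 16 higher and 13 to 18 lower guidance genes, 4 to 6 higher and 5 to 10 lower partners, 8 to 21 lower effectors, and, over all tested genes, 967 to 2508 higher and 903 to 2543 lower, each highest without male replicate 3, by more than 1.5 times for the partners (10), the effectors (21) and all genes (2508 higher, 2543 lower). Limma-voom with quality weights called 11 lower partners, 11 higher and 28 lower effectors, and 3288 higher and 3283 lower genes over all tested, against 16 higher and 21 lower guidance genes. An adjusted p under 0.01 left 7 lower effectors, 900 higher and 835 lower genes. The sign turned for uncalled genes only, given here as log2 fold changes. These were Sema6d (-0.090 with limma-voom, and -0.052 to 0.26 over the fits with a library left out), Efna3 (-0.10 with limma-voom, -0.018 to 0.23 with a library left out), Epha1 (-0.36 with limma-voom, -0.33 to 0.40 with a library left out), Efna5 (-0.25 to 0.041 with a library left out) and Plxna1 (-0.35 to 0.00023 with a library left out). No cause was tested. Same-numbered libraries did not deviate together throughout (correlations 0.206, -0.00405 and 0.152), while the closest match of female replicate 2 was male replicate 3 (0.104), so the numbers are not taken to pair the samples. With the replicate block 12 guidance genes were higher and 15 lower, and 1619 and 1449 of all tested genes. Depth limits the scarce members: the widest 95% interval of an uncalled one spans 2.39 on the log2 scale.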
